A study of Homo sapiens with 24 samples.

Results

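The transcripts described here were 133 solute carriers of 59609 gene symbols counted in the MDA-MB-231 and MDA-MB-453 breast cancer lines. Symbols of the form SLC, family number, A and member number were taken, of which there were 338, and 137 of them averaged 10 or more CPM (counts of a gene per 1000000 counts of its library) over the 12 libraries of at least one line. 4 of these, SLC2A1, SLC16A3, SLC7A11 and SLC39A6, were left out by the rule, which leaves 133 members of 41 families. Members were therefore selected on measured levels, and the levels that selected them are given as description only. The lowest levels inside the threshold were 10.0 CPM for SLC25A20 and 10.0 CPM for SLC9A2, both in MDA-MB-453, and 10.1 CPM for SLC25A16 in MDA-MB-231. Just outside it lay SLC43A1 at 9.96, SLC7A2 at 9.37 and SLC66A3 at 9.18 CPM, all in MDA-MB-231. A further 90 symbols of this form had no count in any library.

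Solute carriers are membrane proteins that move nutrients, ions, metabolites and vitamins across the plasma membrane or the membranes of organelles, as uniporters, cotransporters driven by ion gradients or exchangers. Several work with a partner chain, as the amino acid exchanger SLC7A5 does with the glycoprotein SLC3A2, and the SLC25 family carries metabolites across the inner mitochondrial membrane. Tumour cells draw on these transporters for amino acids, nucleosides, metals and carbon sources. The 133 members were put into 11 substrate classes from textbook roles: 31 mitochondrial carriers, 20 transporters of amino acids and peptides, 20 of metals, 19 of inorganic ions and protons, 11 of sugars and polyols, 7 of organic cations, organic anions and other substrates, and 5 each of lipids, nucleosides, nucleotide sugars and acetyl-CoA, organic acids, and vitamins.

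Both lines are ER-negative and established. MDA-MB-231 was grown in RPMI-1640 with 10% fetal bovine serum, 1% GlutaMax and 1% HEPES, and MDA-MB-453 in DMEM with 10% fetal bovine serum. Each line was treated for 5 days with DMSO (the vehicle), 500 nM abemaciclib (a CDK4/6 inhibitor), 5 nM fulvestrant (an ER degrader) or the combination of both drugs at these doses, with 3 libraries in each of the 8 groups. All 24 libraries were 3′ RNA-seq libraries of bulk RNA, labelled as biological replicates. Line and culture medium change together. A difference between the lines in level or in drug response therefore cannot be told apart from one between the media. In bulk RNA, fewer cells of a type and less RNA per cell cannot be told apart.

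Libraries held 2873558 to 4158762 counts. A chi-square comparison of the counts of each pair of libraries in a group gave 2.64 to 8.65 per degree of freedom, where 1 is sampling noise alone, and the 6 pairs above 7 held fulvestrant replicate 1 of MDA-MB-231 or abemaciclib replicate 1 or fulvestrant replicate 3 of MDA-MB-453. VIM and CD44, high in mesenchymal cells, were counted in all 12 MDA-MB-231 libraries, with a sum of 1798 ± 169 CPM with DMSO and 2153 ± 130.5 CPM with abemaciclib, and in none of MDA-MB-453. Of 6 markers of other cell types, CD14, CD3E and DCN had no count in any library, PTPRC had 3 and PECAM1 18 in all. The summed level of these 6 markers ranged from 1.80 to 7.88 CPM in MDA-MB-231 and from 16.2 to 57.5 CPM in MDA-MB-453, where it was 33.9 to 44.0 CPM with DMSO and 16.2 to 20.0 CPM with abemaciclib, COL1A1 giving most counts. The summed level of MKI67, TOP2A, CCNA2 and PLK1, genes of dividing cells, fell from 2642 ± 33.2 to 1251 ± 180 CPM (mean ± SD, n = 3) in MDA-MB-231 and from 764 ± 24.6 to 5.42 ± 0.975 CPM in MDA-MB-453. The share of counts from mitochondrial-genome genes was 8.83% ± 0.213 with DMSO and 12.2% ± 1.05 with abemaciclib in MDA-MB-231, and 15.2% ± 0.650 and 23.8% ± 1.91 in MDA-MB-453. These measures moved with abemaciclib, and their part in the results was not tested, except that calls were recomputed without the mitochondrial-genome genes.

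The 250 bases before the RefSeq start of 4 members on which the results turn are shown 5′ to 3′ on the gene's strand (GRCh38.p14): SLC7A5 (chr16:87869508-87869757, minus strand) and its partner SLC3A2 (chr11:62881449-62881698, plus strand), SLC1A5 (chr19:46788595-46788844, minus strand), which fell with them, and the zinc exporter SLC30A1 (chr1:211579162-211579411, minus strand), which moved in opposite directions in the lines. Capitals mark the motifs found, searched on both strands. They are CACGTG in SLC7A5, and TGCNCNC in SLC3A2 and SLC30A1. TGCNCNC is a loose form of the core that the metal-responsive factor MTF1 reads.
SLC7A5: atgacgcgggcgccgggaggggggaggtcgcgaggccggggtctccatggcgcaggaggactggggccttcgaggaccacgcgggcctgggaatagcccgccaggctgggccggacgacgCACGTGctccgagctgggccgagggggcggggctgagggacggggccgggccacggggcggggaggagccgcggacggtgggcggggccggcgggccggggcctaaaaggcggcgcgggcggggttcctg
SLC3A2: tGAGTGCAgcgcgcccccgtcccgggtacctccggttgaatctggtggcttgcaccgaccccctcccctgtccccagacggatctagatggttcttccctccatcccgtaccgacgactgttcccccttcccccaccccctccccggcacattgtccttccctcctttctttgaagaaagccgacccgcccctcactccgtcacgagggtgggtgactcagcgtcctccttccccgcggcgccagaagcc
SLC1A5: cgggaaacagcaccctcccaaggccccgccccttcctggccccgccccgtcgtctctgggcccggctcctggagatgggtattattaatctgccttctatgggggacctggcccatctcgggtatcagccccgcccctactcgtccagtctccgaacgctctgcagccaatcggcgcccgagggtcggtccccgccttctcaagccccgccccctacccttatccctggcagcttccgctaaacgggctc
SLC30A1: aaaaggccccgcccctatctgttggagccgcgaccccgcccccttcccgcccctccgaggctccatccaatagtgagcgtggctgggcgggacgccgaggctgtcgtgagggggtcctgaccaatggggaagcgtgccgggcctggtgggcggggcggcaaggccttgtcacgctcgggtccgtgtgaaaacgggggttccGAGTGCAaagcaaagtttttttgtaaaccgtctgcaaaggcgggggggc
CACGTG, an E-box, stood in the window of 14 of the 108 members with a RefSeq promoter (13.0%) and in 6.34% of 35116 promoters. TGCNCNC stood in 59 of 108 (54.6%) and in 49.1% of promoters. 4 forms of the E2F site, TTTGGCGC, TTTCCCGC, TTTGCCGC and TTTCGCGC, stood in 6 members (5.56%) and in 2.79% of promoters, and TGATGNAA, read by the amino acid response factor ATF4, in 2 members (1.85%) and in 3.14% of promoters. A match is a run of letters in this window and not a measured binding site.

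The levels of members in the lines are given as description, since a mean of 10 CPM in either line selected them. 85 members reached 10 CPM in both lines, 35 only in MDA-MB-453 and 13 only in MDA-MB-231. Mean levels were higher in MDA-MB-453 for 80 members and in MDA-MB-231 for 53. The matching shares over all genes were not computed. 16 members reached 10 CPM in one line and stayed below 1 CPM in the other, 13 of them in MDA-MB-453. SLC7A8, the light chain of an exchanger of neutral amino acids that also pairs with SLC3A2, ranged from 77.0 to 120 CPM over the 12 MDA-MB-453 libraries, with a median of 97.5 CPM, and had no count in MDA-MB-231. A floor of 3 counts over the 12 MDA-MB-231 libraries puts the SLC7A8 level at least 1398-fold higher in MDA-MB-453. SLC27A3, of the fatty acid transport protein family, was likewise counted only in MDA-MB-453, between 75.2 and 126 CPM. The others with no count in MDA-MB-231 were SLC1A7, SLC27A5, SLC9A2 and SLC22A17. In the reverse direction, SLC17A9, the vesicular nucleotide transporter, ranged from 29.9 to 58.5 CPM in MDA-MB-231 (median 40.3) and SLC16A7, the monocarboxylate transporter MCT2, from 17.8 to 36.9 CPM, both with no count in MDA-MB-453.

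The monocarboxylate transporters split by line. SLC16A1 (MCT1) ranged from 24.4 to 42.7 CPM in MDA-MB-453 and had 14 counts in all of MDA-MB-231. SLC16A6 (MCT7) ranged from 58.6 to 140.0 CPM in MDA-MB-453 and had 27 counts in MDA-MB-231. Both were thus high in the line that lacked SLC16A7. The iron exporter SLC40A1 (ferroportin) was at 21.2 to 45.7 CPM in MDA-MB-453 and had 12 counts in MDA-MB-231. The reduced folate carrier SLC19A1, at 7.66 to 34.3 CPM in MDA-MB-453, had 1 count in MDA-MB-231, as did the sodium and calcium exchanger SLC24A3 at 11.8 to 27.7 CPM. SLC2A10 and SLC12A7 completed the MDA-MB-453 set, and the glucose transporter SLC2A3 (GLUT3), at 7.47 to 21.2 CPM, the MDA-MB-231 set. All 16 were picked for these levels, which therefore carry no test.

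**Figure D1:**
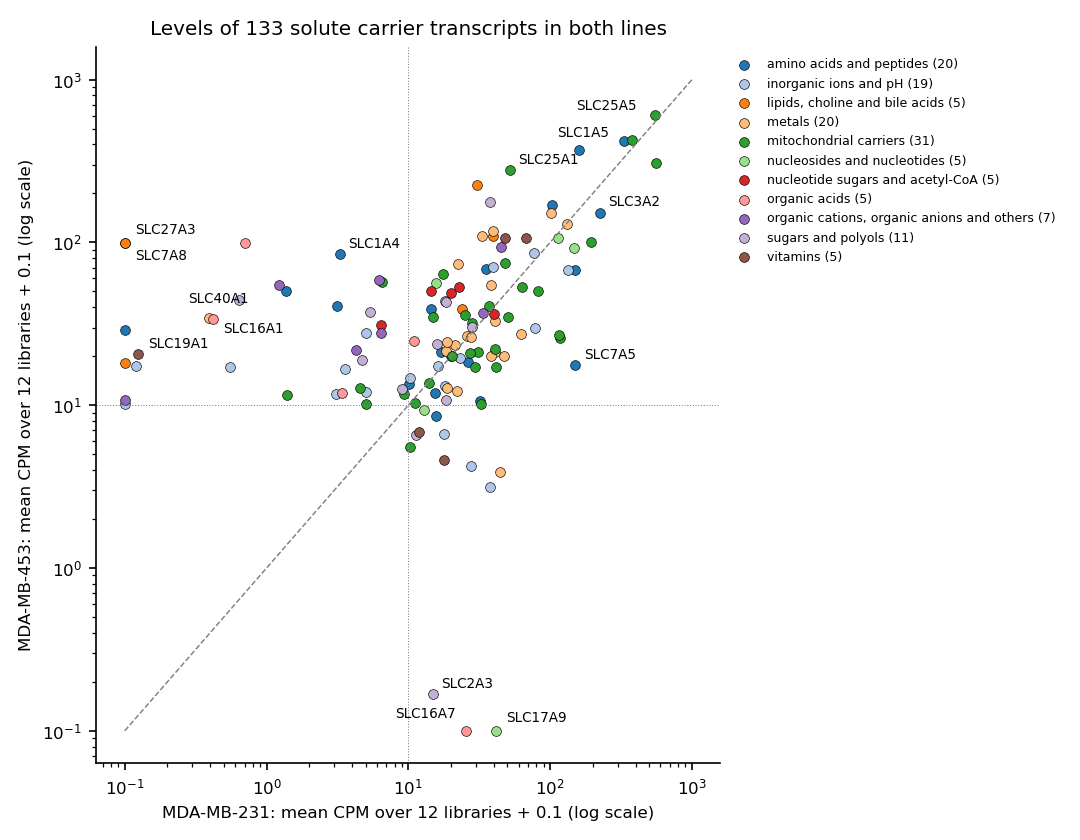
Mean CPM of the 133 members over the 12 libraries of MDA-MB-231 (x axis) and MDA-MB-453 (y axis), both on log scales with 0.1 added, coloured by substrate class, where dotted lines mark 10 CPM and the dashed line equal levels. 85 members lie past 10 CPM in both lines, 35 only in MDA-MB-453 and 13 only in MDA-MB-231.

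The comparison of abemaciclib with DMSO asks which transporters responded to 5 days of CDK4/6 inhibition. Genes with low counts were left out, and 117 members of MDA-MB-231 and 130 of MDA-MB-453 were tested by edgeR's quasi-likelihood test, a call being a Benjamini-Hochberg adjusted p under 0.05 over all genes tested in that line. In MDA-MB-231, 18 members rose and 20 fell, against 16.9% of all genes tested that rose and 16.9% that fell. In MDA-MB-453, 25 rose and 28 fell, against 16.6% and 19.4% of all genes. The share of members called, 32.5% and 40.8%, was near the 33.7% and 36.0% of all genes. The median log2 fold change of members was 0.06 and 0.01 in the lines, and that of all genes -0.00 in both. Of the calls, 24 of 38 (MDA-MB-231) and 36 of 53 (MDA-MB-453) were kept without each of the 12 libraries of that line in turn. All members together took 0.641% ± 0.0136 of counts with DMSO and 0.597% ± 0.0100 with abemaciclib in MDA-MB-231, and 0.835% ± 0.00401 and 0.702% ± 0.0290 in MDA-MB-453. These are shares of all counts, and mitochondrial-genome genes took a larger part of them with abemaciclib in both lines. The contribution of that to the lower shares was not tested.

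Beside the class counts below, 16.9% of all genes rose and 16.9% fell in MDA-MB-231. In MDA-MB-453 16.6% of all genes rose and 19.4% fell. By class, the amino acid transporters had 3 members higher and 5 lower of 17 tested in MDA-MB-231, while 4 of 20 were higher and 7 lower in MDA-MB-453. Their summed level was 1556 ± 45.3 CPM with DMSO and 1020 ± 16.9 CPM with abemaciclib in MDA-MB-231, and 1822 ± 9.61 and 1627 ± 35.8 CPM in MDA-MB-453. Of the nucleoside and nucleotide transporters, 3 of 5 and 2 of 4 fell and none rose, and their sum was 402 ± 15.4 CPM with DMSO and 261 ± 9.94 CPM with abemaciclib in the first line, against 316 ± 15.4 and 195 ± 4.46 CPM in the second. The metal transporters went both ways, with 3 higher and 4 lower of 19 in MDA-MB-231, whereas of 20 in MDA-MB-453 there were 7 higher and 4 lower. Their sums stood at 786 ± 38.4 and 797 ± 24.0 CPM and at 941 ± 18.2 and 940.0 ± 19.6 CPM. Of the mitochondrial carriers, 5 rose and 4 fell of 30 in MDA-MB-231, while 3 rose and 7 fell of 31 in MDA-MB-453, with sums of 2540.0 ± 92.8 and 2709 ± 144 CPM in the first line and 2900.2 ± 32.7 and 2057 ± 160.4 CPM in the second. The sums are plain CPM, whereas the fold changes are scaled by TMM factors. Plain CPM divides by all counts of a library, those of mitochondrial-genome genes included. The mean share of those genes was higher with abemaciclib than with DMSO (MDA-MB-453: 23.8% against 15.2%, MDA-MB-231: 12.2% against 8.83%). A larger share lowers the CPM of all other genes. How much of the change or steadiness of each class sum reflects this was not tested.

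**Figure D2:**
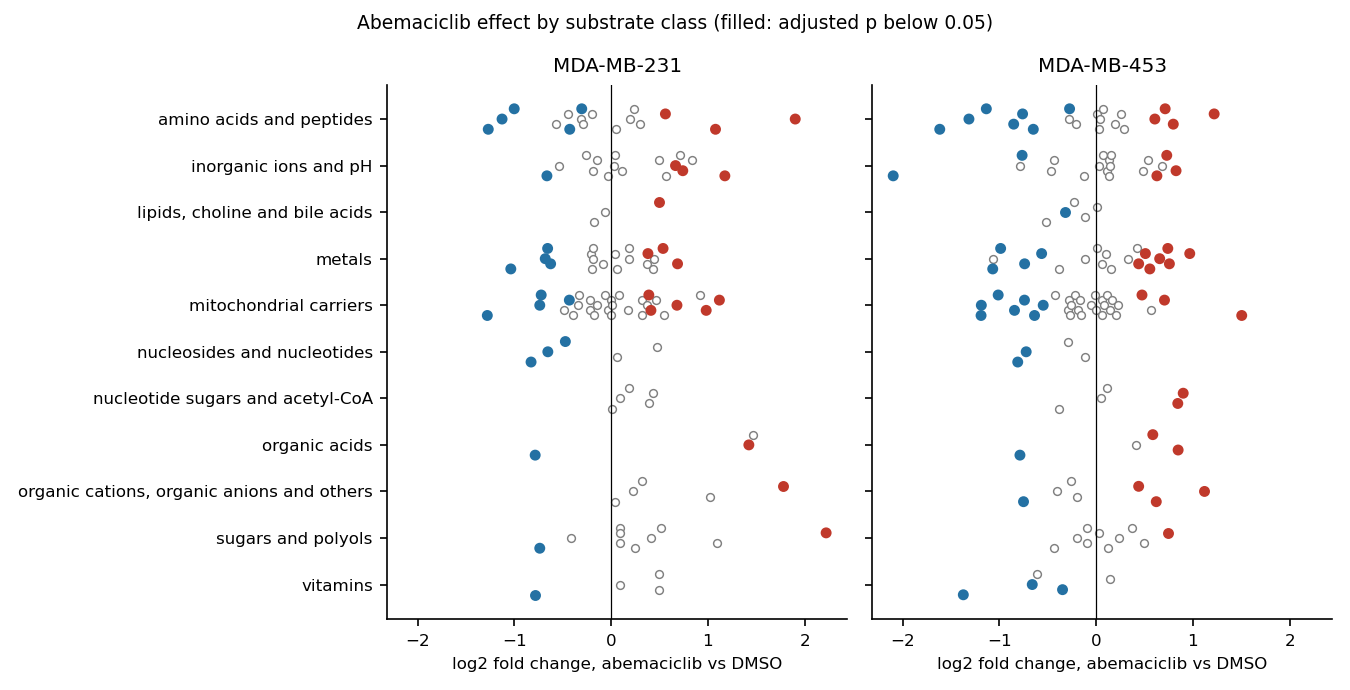
Log2 fold change of each tested member between abemaciclib and DMSO (x axis), by substrate class (y axis) and line, where red points rose and blue points fell at an adjusted p under 0.05, and open points did not pass. In MDA-MB-231 18 members rose and 20 fell, and in MDA-MB-453 25 rose and 28 fell.

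The exchanger SLC7A5 (LAT1) imports leucine and other large neutral amino acids and is held at the membrane by SLC3A2. SLC7A5 (chr16:87830023-87869507, GRCh38) was at 223, 204 and 215 CPM in the DMSO libraries of MDA-MB-231 and at 91.1, 94.2 and 81.1 CPM with abemaciclib. Its log2 fold change was -1.27 (standard error 0.11, adjusted p = 1.00e-12). In MDA-MB-453 the same gene went from 23.1, 32.0 and 28.8 CPM to 8.10, 9.30 and 8.42 CPM, a change of -1.62 (standard error 0.28, adjusted p = 5.60e-06). In neither line did the groups overlap, and every abemaciclib library was low. SLC3A2 was at 297, 288 and 300.2 CPM with DMSO and 147, 162 and 133 CPM with abemaciclib in MDA-MB-231, a change of -1.002 (standard error 0.10, adjusted p = 1.21e-10). In MDA-MB-453 it went from 183, 169 and 168 to 135, 137 and 134 CPM, a change of -0.27 (adjusted p = 0.023). The groups of SLC3A2 did not overlap in either line, but the MDA-MB-453 call was lost without DMSO replicate 1 (-0.24) or 3 (-0.28) or without abemaciclib replicate 1 (-0.25). The fall of SLC3A2 was larger in MDA-MB-231, with a difference of 0.74 (standard error 0.14, adjusted p = 4.60e-05) on the log2 scale.

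SLC1A5 (ASCT2), the sodium-dependent exchanger of glutamine and other neutral amino acids, fell in both lines. Its 3 DMSO libraries of MDA-MB-231 were at 443, 412 and 413 CPM and the abemaciclib libraries at 215, 169 and 196 CPM, a log2 fold change of -1.13 (standard error 0.10, adjusted p = 2.77e-12). In MDA-MB-453 the values were 586, 553 and 574 CPM and 299, 303 and 293 CPM, a change of -0.85 (standard error 0.10, adjusted p = 5.15e-10). Neither pair of groups overlapped. SLC7A1 (CAT1), the importer of arginine and lysine, went from 157, 158 and 180.3 CPM to 126, 127 and 114 CPM in MDA-MB-231 (log2 fold change -0.43, adjusted p = 0.0017). In MDA-MB-453 it went from 89.1, 87.9 and 81.4 to 49.8, 54.5 and 51.1 CPM (log2 fold change -0.65, adjusted p = 6.68e-05). These calls of SLC1A5 and SLC7A1 were kept without each library. Exons of SLC7A5 overlap ENSG00000260466 and those of SLC1A5 overlap ENSG00000275719 on the opposite strand, and since the strand setting of the counting is not given in the sources used here, reads of these genes may have been shared. The same holds for 54 of the 133 members.

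**Figure D3:**
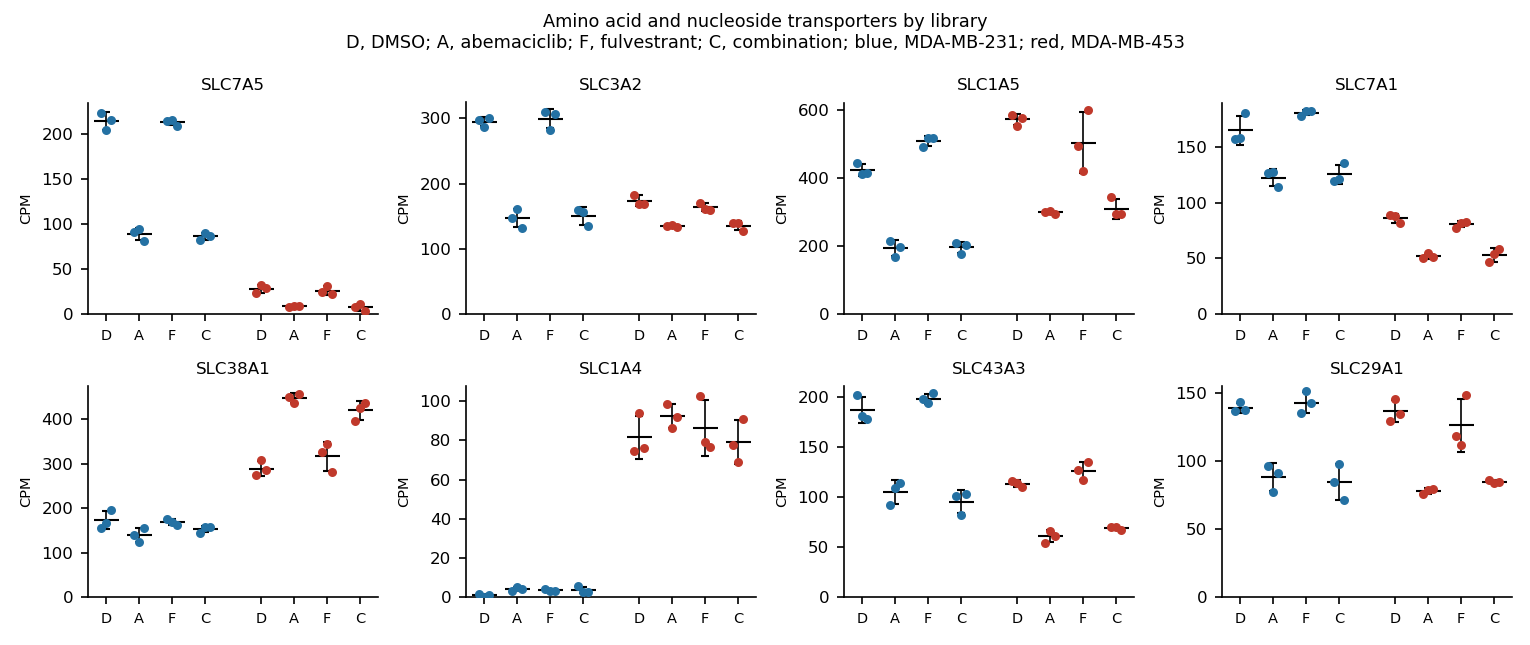
CPM in each library of 6 amino acid transporters, the nucleobase transporter SLC43A3 and the nucleoside transporter SLC29A1 (y axis) for DMSO (D), abemaciclib (A), fulvestrant (F) and the combination (C), blue for MDA-MB-231 and red for MDA-MB-453, with mean and SD of 3 libraries. SLC7A5, SLC1A5, SLC7A1, SLC43A3 and SLC29A1 are lower in A than in D in both lines without overlap, and SLC38A1 is lower in MDA-MB-231 but higher in MDA-MB-453.

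The sodium-coupled glutamine importer SLC38A1 (SNAT1) moved apart in the lines. In MDA-MB-453 it rose from 274, 307 and 286 CPM to 449, 436 and 457 CPM, a log2 fold change of 0.71 (standard error 0.09, adjusted p = 3.89e-09). In MDA-MB-231 it was at 156, 167 and 197 CPM with DMSO and 141, 123 and 156 CPM with abemaciclib, a change of -0.30 (adjusted p = 0.029). That second call was lost without DMSO replicate 3 (-0.20), abemaciclib replicate 1 (-0.31) or abemaciclib replicate 2 (-0.22), whereas the difference between the lines, 1.03 (standard error 0.14, adjusted p = 9.60e-08), was kept without each of the 24 libraries. SLC38A7, a lysosomal exporter of glutamine and asparagine, rose in MDA-MB-231 from 10.1, 10.5 and 10.6 CPM to 14.8, 24.9 and 26.3 CPM (log2 fold change 1.08, adjusted p = 8.54e-04). The related SLC38A10 rose by 0.61 in MDA-MB-453 (adjusted p = 4.64e-04) and by 0.56 in MDA-MB-231, the latter lost without DMSO replicate 1 (0.34) or abemaciclib replicate 2 (0.47).

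Within the SLC1 family the members went in opposite directions. SLC1A4 (ASCT1), a transporter of alanine, serine and threonine, was low in MDA-MB-231, at 1.83, 0.292 and 1.21 CPM with DMSO and 3.12, 5.17 and 4.38 CPM with abemaciclib, a log2 fold change of 1.90 (standard error 0.66, adjusted p = 0.021). In the second measurement of the abemaciclib effect, the combination against fulvestrant, SLC1A4 changed by 0.01 (adjusted p = 1) in this line. The SLC1A4 call ended without DMSO replicate 2 (1.46) or abemaciclib replicate 2 (1.74). With SLC1A5 it formed the pair of one family with the widest opposite calls in that line. In MDA-MB-453, where SLC1A4 was at 74.5, 94.1 and 75.9 CPM with DMSO, its groups overlapped and it was not called (log2 fold change 0.26, adjusted p = 0.11). SLC1A7 (EAAT5), a glutamate transporter counted only in MDA-MB-453, rose from 14.9, 15.9 and 17.2 CPM to 41.7, 34.2 and 29.8 CPM (log2 fold change 1.22, standard error 0.20, adjusted p = 1.78e-06). In the same line SLC43A2 (LAT4), which carries branched-chain amino acids, rose by 0.80 (adjusted p = 4.80e-04). The amino acid transporter SLC36A4 (-1.31), the taurine transporter SLC6A6 (-1.13) and the glycine transporter SLC6A9 (-0.76) fell. SLC7A8 was not called, at 108, 96.9 and 119.9 CPM with DMSO and 102, 111 and 99.2 CPM with abemaciclib.

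SLC43A3, which takes up purine nucleobases, and SLC29A1 (ENT1), the equilibrative nucleoside transporter, fell in both lines. SLC43A3 went from 202, 182 and 179 CPM to 92.3, 109.7 and 115 CPM in MDA-MB-231 (log2 fold change -0.83, standard error 0.11, adjusted p = 1.57e-07) and from 117, 114 and 110.2 CPM to 54.9, 66.8 and 61.9 CPM in MDA-MB-453 (log2 fold change -0.81, standard error 0.12, adjusted p = 3.16e-07). SLC29A1 went from 137, 144 and 138 CPM to 96.8, 77.2 and 91.5 CPM in MDA-MB-231 (log2 fold change -0.65, standard error 0.12, adjusted p = 3.43e-05). In MDA-MB-453 the SLC29A1 values were 129.8, 146 and 135 CPM and 75.9, 79.1 and 79.7 CPM (log2 fold change -0.72, standard error 0.12, adjusted p = 1.77e-06). In none of these 4 comparisons did the groups overlap, and all 4 calls were kept without each library. The differences between the lines were 0.03 (SE 0.16) for SLC43A3 and -0.06 (SE 0.17) for SLC29A1, neither called. Exons of SLC43A3 overlap ENSG00000254979 on the same strand. The close relative SLC29A2 (ENT2) was not called in either line, with changes of 0.48 and -0.12.

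3 zinc transporters, SLC39A4, SLC30A1 and SLC39A10, were called in opposite directions in the lines. SLC39A4 (ZIP4), a zinc importer of the plasma membrane, rose from 104, 108 and 122 CPM to 148, 135 and 150.4 CPM in MDA-MB-231 (log2 fold change 0.38, standard error 0.11, adjusted p = 0.0061). In MDA-MB-453 it fell from 181, 164 and 170.1 CPM to 74.1, 97.4 and 73.0 CPM (log2 fold change -0.99, standard error 0.12, adjusted p = 3.12e-09). Groups were apart in both lines, and the difference, -1.36 (standard error 0.16, adjusted p = 7.66e-09), was kept without each library. SLC39A4 overlaps exons of ENSG00000272115 on the other strand. SLC30A1 (ZnT1), which exports zinc from the cell, went the other way. It was at 27.4, 24.2 and 28.2 CPM with DMSO and 19.6, 16.7 and 14.2 CPM with abemaciclib in MDA-MB-231 (log2 fold change -0.66, adjusted p = 0.017), and at 19.3, 12.6 and 16.9 CPM and 21.8, 25.7 and 30.4 CPM in MDA-MB-453 (log2 fold change 0.76, adjusted p = 0.0065). Groups of SLC30A1 did not overlap, but its call was lost in MDA-MB-231 without DMSO replicate 3 (-0.61) or abemaciclib replicate 3 (-0.54) and in MDA-MB-453 without DMSO replicate 2 (0.59) or abemaciclib replicate 3 (0.61). The difference between the lines, 1.42 (standard error 0.31, adjusted p = 5.72e-04), was kept without each library.

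SLC39A10 (ZIP10), also an importer, fell in MDA-MB-231 from 46.3, 59.0 and 66.7 CPM to 31.8, 35.9 and 39.5 CPM (log2 fold change -0.68, standard error 0.17, adjusted p = 0.002). In MDA-MB-453 it was at 17.5, 19.4 and 15.0 CPM with DMSO and 23.5, 23.3 and 25.3 CPM with abemaciclib, a change of 0.56 (adjusted p = 0.046) that was lost, at 0.47 to 0.64, without any one DMSO or abemaciclib library or without fulvestrant replicate 1 or 2, and with a replicate block. SLC30A5 (ZnT5), which loads zinc into the secretory pathway, had the largest fall of the class in MDA-MB-231, from 23.8, 21.0 and 22.1 CPM to 11.6, 12.5 and 8.49 CPM (log2 fold change -1.04, standard error 0.24, adjusted p = 8.44e-04). Its values in MDA-MB-453, 15.5, 21.1 and 15.2 CPM and 22.5, 18.6 and 20.4 CPM, overlapped and were not called (log2 fold change 0.33, adjusted p = 0.26). SLC30A7 (ZnT7), of the same pathway, had the largest rise of the class in MDA-MB-453, from 16.7, 23.3 and 21.6 CPM to 25.0, 49.0 and 39.7 CPM (log2 fold change 0.97, standard error 0.22, adjusted p = 3.64e-04). In that line SLC30A9 (0.66), SLC39A7 (0.44), the zinc exit route of the endoplasmic reticulum, and SLC39A11 (0.74) also rose, and the zinc and manganese importer SLC39A8 fell (-0.74), all kept without each library. In MDA-MB-231 SLC39A13 (ZIP13) rose from 32.0, 22.8 and 31.8 CPM to 42.3, 41.0 and 55.6 CPM (log2 fold change 0.69, adjusted p = 0.0037).

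The magnesium transporter SLC41A1 had the largest fall of the metal class in MDA-MB-453, from 15.2, 20.8 and 13.8 CPM to 5.31, 4.38 and 12.9 CPM (log2 fold change -1.07, standard error 0.32, adjusted p = 0.0066). One abemaciclib library stood above the other two, and without it (replicate 3) the fold change was -1.71. The call was lost without DMSO replicate 2 (-0.88), abemaciclib replicate 1 (-0.84) or abemaciclib replicate 2 (-0.80). In MDA-MB-231 SLC41A1 changed by -0.63 (adjusted p = 0.026), lost without DMSO replicate 2 (-0.62) or 3 (-0.53) or without abemaciclib replicate 3 (-0.49). Ferroportin, SLC40A1, was at 39.7, 44.3 and 45.7 CPM with DMSO and 28.1, 33.4 and 32.8 CPM with abemaciclib in MDA-MB-453, without overlap but not called (log2 fold change -0.38, adjusted p = 0.083).

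**Figure D4:**
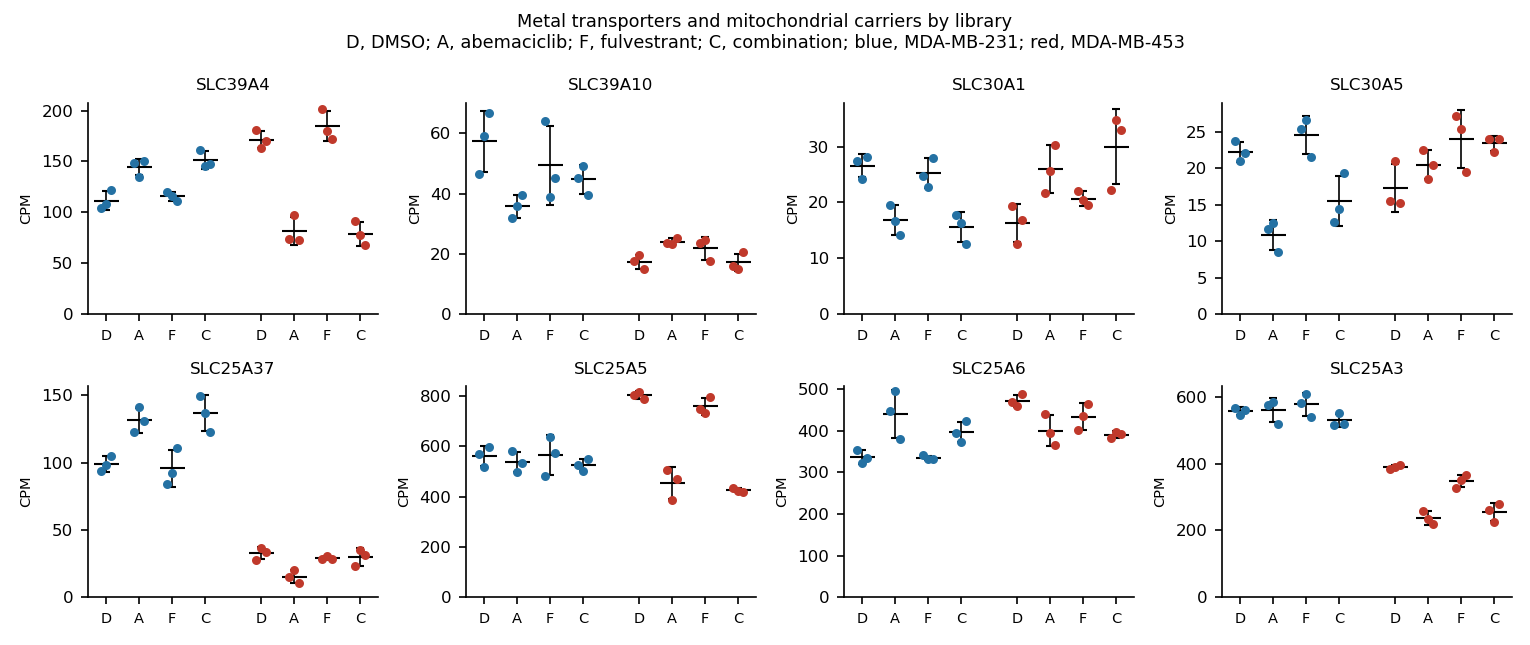
CPM in each library of 4 zinc transporters (upper row) and 4 mitochondrial carriers (lower row) for DMSO (D), abemaciclib (A), fulvestrant (F) and the combination (C), blue for MDA-MB-231 and red for MDA-MB-453, with mean and SD of 3 libraries on the y axis. SLC39A4 and SLC25A37 are higher in A than in D in MDA-MB-231 but lower in MDA-MB-453, and SLC30A1 and SLC39A10 show the reverse.

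Of the mitochondrial carriers, 13.3% fell in MDA-MB-231, where 16.9% of all genes did, and 22.6% in MDA-MB-453, where 19.4% of all genes did. The 7 that fell in MDA-MB-453 kept their calls without each library and the 3 that rose there did not. SLC25A5 (ANT2), an exchanger of ADP and ATP, was at 804, 816 and 787 CPM with DMSO and 506, 385 and 470.4 CPM with abemaciclib (log2 fold change -0.74, standard error 0.08, adjusted p = 4.39e-10). The phosphate carrier SLC25A3 went from 385, 390.0 and 397 CPM to 258, 234 and 219.7 CPM (log2 fold change -0.64, standard error 0.09, adjusted p = 9.69e-08) and the citrate carrier SLC25A1 from 349, 332 and 352 CPM to 235, 213 and 219.7 CPM (log2 fold change -0.55, standard error 0.09, adjusted p = 2.39e-06). All abemaciclib libraries of these 3 genes lay below all DMSO libraries. In MDA-MB-231 none of the 3 was called, at -0.06, 0.01 and 0.32, and each difference between the lines was called, at -0.67 (adjusted p = 9.53e-05), -0.64 (adjusted p = 7.48e-05) and -0.86 (adjusted p = 2.35e-04). The dicarboxylate carrier SLC25A10 fell by 0.84 in MDA-MB-453 (adjusted p = 4.08e-04). Exons of SLC25A5 overlap SLC25A5-AS1 on the opposite strand.

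The ornithine carrier SLC25A15 fell in both, from 33.2, 34.2 and 37.0 to 24.1, 20.1 and 18.9 CPM in MDA-MB-231 (log2 fold change -0.72, adjusted p = 0.003) and from 25.1, 26.8 and 19.9 to 15.4, 5.20 and 9.02 CPM in MDA-MB-453 (log2 fold change -1.19, adjusted p = 3.89e-04). Mitoferrin-1, SLC25A37, which brings iron into mitochondria, moved apart: it rose from 93.6, 98.4 and 105 CPM to 123, 141 and 131 CPM in MDA-MB-231 (log2 fold change 0.41, standard error 0.12, adjusted p = 0.0065). In MDA-MB-453 it fell from 28.1, 36.7 and 33.8 CPM to 15.2, 20.3 and 10.5 CPM (log2 fold change -1.01, standard error 0.22, adjusted p = 2.00e-04), and the difference was -1.41 (standard error 0.23, adjusted p = 6.40e-06). The calls of SLC25A15 and SLC25A37 were kept without each library.

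In MDA-MB-231 the largest fall of the class was that of SLC25A33, a pyrimidine nucleotide carrier, from 28.0, 22.8 and 32.7 CPM to 11.4, 8.81 and 14.0 CPM (log2 fold change -1.28, standard error 0.25, adjusted p = 8.68e-05). The largest rise was that of SLC25A23, a calcium-regulated carrier of ATP-magnesium and phosphate, from 29.9, 26.6 and 17.6 CPM to 48.0, 56.2 and 56.7 CPM (log2 fold change 1.12, standard error 0.19, adjusted p = 5.43e-06). The mitochondrial glutathione carrier SLC25A39 rose from 158, 140.5 and 145 CPM to 252, 241 and 217 CPM (log2 fold change 0.68, standard error 0.10, adjusted p = 1.11e-06). Groups of these 3 genes did not overlap in MDA-MB-231 but did in MDA-MB-453, where none was called. In MDA-MB-231 SLC25A6 (ANT3) also rose, by 0.39 (adjusted p = 0.0013). SLC25A36, related to SLC25A33, rose in MDA-MB-453 (log2 fold change 0.71, adjusted p = 0.022), lost without DMSO replicate 1 (0.53) or 3 (0.71) or without abemaciclib replicate 2 (0.63).

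Among ion transporters, SLC9A7, a sodium/proton exchanger of the Golgi network, was called in both lines. It rose in MDA-MB-453 from 10.8, 15.3 and 18.0 CPM to 21.8, 26.0 and 21.6 CPM (log2 fold change 0.73, adjusted p = 0.012), lost without DMSO replicate 1 (0.55) or abemaciclib replicate 2 (0.63). In MDA-MB-231 it went from 13.1, 18.4 and 17.9 CPM to 28.1, 23.4 and 31.0 CPM (log2 fold change 0.74, adjusted p = 0.0067), lost without DMSO replicate 1 (0.60). The groups were apart in both lines.

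The anion exchanger SLC4A2 (AE2) fell in MDA-MB-453 from 112, 105 and 121 CPM to 65.5, 58.6 and 64.0 CPM (log2 fold change -0.77, standard error 0.12, adjusted p = 1.45e-06). The sodium, calcium and potassium exchanger SLC24A1 rose there (log2 fold change 0.83, adjusted p = 0.0095), lost without DMSO replicate 2 (0.70) or abemaciclib replicate 3 (0.63). In MDA-MB-231 SLC12A9, of the cation-chloride cotransporter family, rose from 11.0, 12.0 and 9.39 CPM to 24.4, 25.2 and 23.6 CPM (log2 fold change 1.18, standard error 0.25, adjusted p = 2.16e-04), every abemaciclib library being high. The sulfate transporter SLC26A2 rose by 0.67 there (adjusted p = 0.0035). Exons of SLC12A9 overlap EPHB4 on the opposite strand.

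Transporters of organic acids included one that rose in both lines. SLC17A5 (sialin), which releases sialic acid from lysosomes, went from 6.40, 5.55 and 5.15 CPM to 14.2, 13.7 and 18.1 CPM in MDA-MB-231 (log2 fold change 1.42, standard error 0.36, adjusted p = 0.0015) and from 14.3, 18.9 and 19.1 CPM to 27.1, 28.5 and 33.7 CPM in MDA-MB-453 (log2 fold change 0.85, standard error 0.23, adjusted p = 0.0024). Both pairs of groups were apart, and both calls were kept without each library. The line-restricted monocarboxylate transporters SLC16A7 and SLC16A6 fell. SLC16A7 went from 36.9, 33.0 and 34.8 CPM to 17.9, 19.1 and 23.6 CPM in MDA-MB-231 (log2 fold change -0.79, adjusted p = 0.0019). SLC16A6 went from 140.0, 122 and 126 CPM to 85.0, 58.6 and 68.8 CPM in MDA-MB-453 (log2 fold change -0.79, adjusted p = 6.07e-07). SLC16A1, by contrast, rose in MDA-MB-453 from 30.1, 28.2 and 24.4 CPM to 34.9, 42.7 and 39.4 CPM (log2 fold change 0.59, adjusted p = 0.0078). Exons of SLC16A6 overlap ARSG on the opposite strand.

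The carnitine transporter SLC22A5 (OCTN2) rose in MDA-MB-453 from 17.5, 20.0 and 16.3 CPM to 37.7, 30.4 and 42.7 CPM (log2 fold change 1.12, standard error 0.20, adjusted p = 1.65e-05). SLC10A3, placed by its family among the organic anion transporters, fell there from 117, 117 and 121 CPM to 73.1, 55.6 and 70.9 CPM (log2 fold change -0.75, standard error 0.12, adjusted p = 2.13e-06). The groups of both were apart. SLC22A18 rose in both lines, by 1.78 in MDA-MB-231, from 2.74, 0.584 and 5.15 CPM to 10.8, 11.8 and 6.58 CPM, and by 0.62 in MDA-MB-453. The difference between the lines was called for SLC22A18 (-1.15, standard error 0.41, adjusted p = 0.037). In the combination against fulvestrant its MDA-MB-453 change was 0.23 and was not called. Both nucleotide-sugar or acetyl-CoA transporters that rose in MDA-MB-453 serve the Golgi and the endoplasmic reticulum: the UDP-N-acetylglucosamine transporter SLC35A3 went from 37.7, 31.5 and 36.0 to 55.7, 70.9 and 58.6 CPM (log2 fold change 0.90, adjusted p = 7.72e-06). The acetyl-CoA transporter SLC33A1 went from 29.5, 36.1 and 39.3 to 62.5, 52.3 and 63.7 CPM (log2 fold change 0.84, adjusted p = 3.71e-05). None of the 5 members of that class was called in MDA-MB-231. Exons of SLC22A5 overlap MIR3936HG on the opposite strand.

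Of the vitamin transporters, SLC5A6, which carries biotin and pantothenate, fell in MDA-MB-231 from 63.7, 56.6 and 58.8 CPM to 30.1, 40.7 and 32.9 CPM (log2 fold change -0.79, standard error 0.16, adjusted p = 1.17e-04), and its MDA-MB-453 groups overlapped (log2 fold change 0.15, adjusted p = 0.37). Exons of SLC5A6 overlap ATRAID on the opposite strand. The reduced folate carrier SLC19A1 had a log2 fold change of -0.66 (adjusted p = 0.032) in MDA-MB-453, lost, at -0.67 to -0.57, without DMSO replicate 1 or 3 or abemaciclib replicate 1 or 3. Of 10 sugar transporters tested in each line, 1 rose and 1 fell in MDA-MB-231 (16.9% and 16.9% of all genes), and 1 rose and none fell in MDA-MB-453 (16.6% and 19.4% of all genes). For the combination against fulvestrant 3 of the 10 were called in each line, where 36.1% (MDA-MB-231) and 36.6% (MDA-MB-453) of all genes were. SLC45A3 changed by -0.74 (adjusted p = 0.021) in MDA-MB-231, lost without DMSO replicate 2 (-0.54) or abemaciclib replicate 2 (-0.62). SLC2A11, of the glucose transporter family, rose from 2.44, 2.34 and 0.909 CPM to 7.66, 13.1 and 6.30 CPM in MDA-MB-231 (log2 fold change 2.22, standard error 0.50, adjusted p = 4.80e-04). Of the lipid class, the choline transporter-like SLC44A2 changed by 0.50 (adjusted p = 0.043) in MDA-MB-231, lost, at 0.35 to 0.55, without DMSO replicate 1 or 3, abemaciclib replicate 1 or 3 or combination replicate 3. SLC27A3 changed by -0.32 (adjusted p = 0.035) in MDA-MB-453, lost, at -0.31 to -0.26, without DMSO replicate 2 or 3 or abemaciclib replicate 1 or 3. DESeq2 did not call SLC19A1, SLC44A2 or SLC27A3 in these comparisons.

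Of 114 members tested in both lines, MDA-MB-231 had 36 calls, MDA-MB-453 had 46, and 19 were common to both. These 19 were 52.8% of the first list and 41.3% of the second, where the corresponding shares for all genes were 49.1% and 45.6%. 9 fell in both lines (among them SLC1A5, SLC3A2, SLC7A1, SLC7A5, SLC25A15, SLC29A1, SLC41A1 and SLC43A3) and 4 rose in both (SLC9A7, SLC17A5, SLC22A18 and SLC38A10). 6 were called in opposite directions. Among them, SLC25A37 and SLC39A4 rose in MDA-MB-231 but fell in MDA-MB-453, and SLC30A1, SLC38A1 and SLC39A10 did the reverse. Over all genes, 1628 were called in both lines. Of these, 823 fell in both, 473 rose in both and 332 were called in opposite directions. The 6 members called in opposite directions were also called in the test of the difference between the lines. That test used the same libraries that gave the opposite calls, so it adds no separate support. These 6 differences were kept without each of the 24 libraries. The libraries on which single calls depended are named with each gene. Without a filter on low counts the MDA-MB-231 calls of SLC38A1 and SLC41A1 and the MDA-MB-453 calls of SLC3A2 and SLC39A10 were also lost, those of SLC41A1 and SLC39A10 by DESeq2 too. These 19, and the other members named beyond the largest changes of each class, were chosen after their values were seen.

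**Figure D5:**
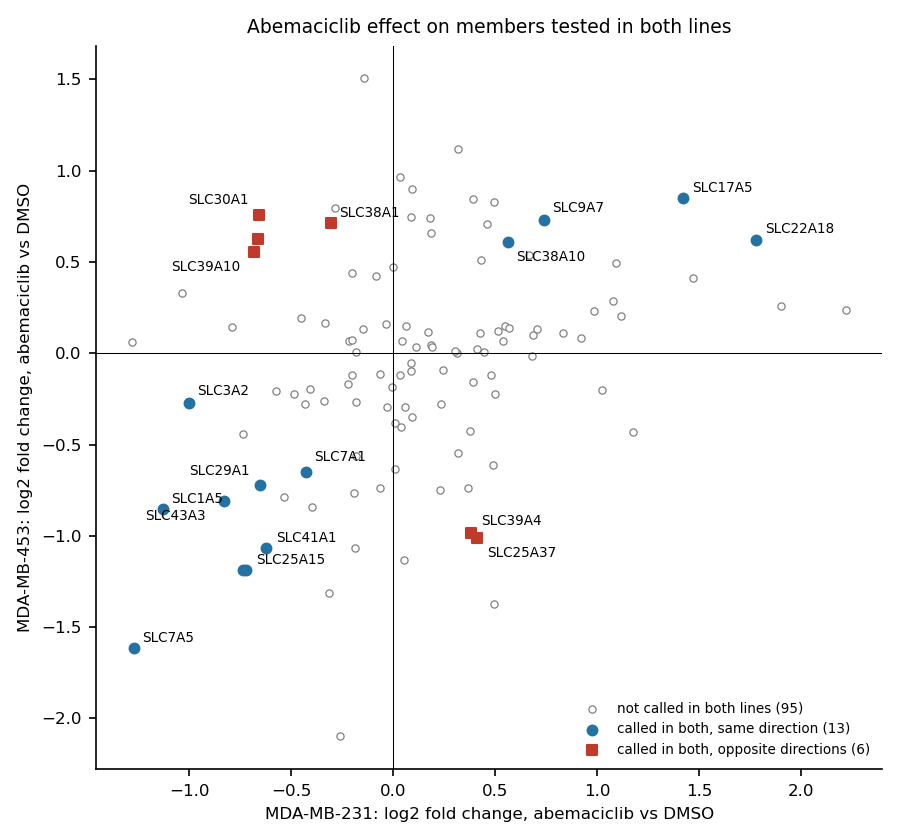
Log2 fold change between abemaciclib and DMSO in MDA-MB-231 (x axis) and MDA-MB-453 (y axis) of the 114 members tested in both lines. 13 members called in both lines in the same direction are filled circles, 6 called in opposite directions are squares, and the others are open circles.

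The response to abemaciclib was then compared between the lines, the MDA-MB-231 effect being subtracted from the MDA-MB-453 one, with all 24 libraries and all 133 members. 13 members had a higher effect in MDA-MB-453, against 7.72% of all genes tested, and 21 a lower one, against 13% of all genes. The median difference was -0.22 for members and -0.07 for all genes, and 24 of the 34 calls were kept without each library. Among the 5 largest positive differences were those of SLC25A16 (1.66, standard error 0.60, adjusted p = 0.043), SLC30A1, SLC30A5 (1.38, standard error 0.32, adjusted p = 0.0011) and SLC25A33 (1.35, standard error 0.36, adjusted p = 0.0045). Among the 5 largest negative ones were those of SLC2A11 (-1.97, standard error 0.43, adjusted p = 5.72e-04), the vitamin C transporter SLC23A2 (-1.86, standard error 0.56, adjusted p = 0.013), SLC1A4 (-1.63, standard error 0.49, adjusted p = 0.012) and SLC12A9 (-1.60, standard error 0.38, adjusted p = 0.0012). SLC25A16 was at 2.34, 2.74 and 2.77 CPM with DMSO and 10.1, 6.29 and 4.81 CPM with abemaciclib in MDA-MB-453, and its difference was lost without 14 of the 24 libraries, in a range down to 1.27 without abemaciclib replicate 1 of MDA-MB-453. It was kept only without MDA-MB-231 DMSO replicate 1, MDA-MB-453 abemaciclib replicate 3, any combination library of MDA-MB-453 or any fulvestrant library but replicate 3 of MDA-MB-453, and was lost without mitochondrial-genome genes (adjusted p = 0.052). That of SLC23A2 was lost without MDA-MB-453 DMSO replicate 2 (-1.65) or abemaciclib replicate 2 (-1.50), and that of SLC1A4 without MDA-MB-231 DMSO replicate 2 (-1.25).

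Fulvestrant alone had no member called in either line by edgeR's test (0 of 117 in MDA-MB-231, where 0% of all genes were called, and 0 of 130 in MDA-MB-453, where 1.41% were). At an unadjusted p under 0.05 there were 10 of 117 and 18 of 130 members, beside 799 of 11314 and 1504 of 11080 genes tested. DESeq2 called 0 and 2 members. SLC7A5, for example, was at 215, 215 and 209 CPM with fulvestrant in MDA-MB-231, within the range of its DMSO libraries. In MDA-MB-453 the count for fulvestrant rose to 10 without fulvestrant replicate 3. The combination against DMSO called 21 members higher and 21 lower in MDA-MB-231, against 17% and 18.3% of all genes, while MDA-MB-453 had 25 higher and 30 lower, against 17.6% and 20% of all genes. It shares the DMSO libraries with the comparison above. SLC7A5, SLC1A5, SLC43A3 and SLC29A1 had log2 fold changes of -1.32, -1.12, -0.98 and -0.72 in MDA-MB-231 and -1.96, -0.89, -0.72 and -0.69 in MDA-MB-453 in the combination against DMSO, all called.

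The effect of abemaciclib was measured a second time on other libraries, as the combination against fulvestrant alone. In MDA-MB-231 22 members were higher and 26 lower (17.6% and 18.5% of all genes), and in MDA-MB-453 32 higher and 27 lower (17.2% and 19.4% of all genes). In MDA-MB-231 26 members were called in both comparisons, 68.4% of the 38 called against DMSO and 54.2% of the 48 called here, 12 higher and 14 lower, none in opposite directions. The shares for all genes were 68.7% and 64.2%, and 10 of the 2619 genes called in both were opposite. In MDA-MB-453 38 members were called in both, 71.7% of 53 and 64.4% of 59, 17 higher and 21 lower and again none in opposite directions. The shares for all genes were 65.7% and 64.6%, and 36 of the 2618 genes called in both were opposite. SLC39A4 had a log2 fold change of 0.38 (adjusted p = 0.0054) in MDA-MB-231 and -1.18 (adjusted p = 2.71e-11) in MDA-MB-453, and SLC38A1 of -0.16 (adjusted p = 0.27) and 0.46 (adjusted p = 3.19e-05). SLC30A1 was at -0.70 (adjusted p = 0.0097) and 0.59 (adjusted p = 0.029), the second not called by DESeq2. SLC39A10 was not called in either line, at -0.16 (adjusted p = 0.51) and -0.29 (adjusted p = 0.33), so that its sign turned in MDA-MB-453. The opposite directions of SLC25A37 were not called again, since with fulvestrant present it changed by 0.10 (adjusted p = 0.75) in MDA-MB-453, against 0.50 (adjusted p = 9.07e-04) in MDA-MB-231. SLC35A3, which had risen against DMSO in MDA-MB-453, was at -0.07 (adjusted p = 0.75). The remaining members called against DMSO and not here had the same sign in both measurements. In MDA-MB-231 their log2 fold changes ranged from -0.53 for SLC45A3 to 0.39 for SLC9A7, with the monocarboxylate transporter SLC16A7 at -0.15. In MDA-MB-453 they ranged from -0.41 for SLC23A2 to 0.95 for SLC25A16, with SLC4A2 at -0.29, SLC16A1 at 0.12 and SLC30A7 at 0.53.

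The combination against abemaciclib alone called 0 of 117 members in MDA-MB-231 by edgeR (0.0265% of all genes) and 3 of 130 in MDA-MB-453 (2.46%). At an unadjusted p under 0.05 there were 11 of 117 members in MDA-MB-231, beside 1148 of 11314 genes tested, and DESeq2 called 1 member. The 3 were higher in the combination. SLC25A37 was at 15.2, 20.3 and 10.5 CPM with abemaciclib and 23.0, 35.3 and 31.7 CPM with both drugs, without overlap (log2 fold change 0.88, adjusted p = 0.017). SLC2A11 was at 34.4, 37.8 and 23.1 CPM and 63.7, 54.7 and 46.2 CPM (log2 fold change 0.69, adjusted p = 0.019), and SLC25A29, a carrier of basic amino acids, at 50.4, 56.9 and 55.0 CPM and 65.4, 97.0 and 82.7 CPM (log2 fold change 0.51, adjusted p = 0.048). DESeq2 did not call SLC25A37. The SLC25A29 call was lost with a replicate block (adjusted p = 0.058), with DESeq2 size factors (adjusted p = 0.053) and without mitochondrial-genome genes (adjusted p = 0.052). All 3 calls depended on single libraries. SLC25A37 was lost without abemaciclib replicate 3 (0.70) or combination replicate 2 (0.75) or 3 (0.85), SLC2A11 without abemaciclib replicate 3 (0.53) or combination replicate 1 (0.57) or 2 (0.69), and SLC25A29 without 8 of the 12 libraries, in a range down to 0.37 without combination replicate 2, being kept only without combination replicate 1 or any one fulvestrant library. The count of 3 became 0 without abemaciclib replicate 3 or combination replicate 2, 1 without combination replicate 3 and 6 without abemaciclib replicate 1.

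The interaction of the drugs is the combination effect beyond the sum of the single-drug effects on the log2 scale. It called 0 members in MDA-MB-231 by edgeR (0.124% of all genes) and 0 by DESeq2. At an unadjusted p under 0.05 there were 17 of 117 members there, beside 1298 of 11314 genes tested. In MDA-MB-453 edgeR called 6 members (3.8% of all genes). The largest were SLC25A37 (1.11, adjusted p = 0.025), the sodium bicarbonate cotransporter SLC4A7 (-1.05, adjusted p = 0.039), SLC35A3 (-0.97, adjusted p = 0.006), SLC25A29 (0.95, adjusted p = 0.0057) and SLC29A2 (0.70, adjusted p = 0.036). SLC35A3 and SLC25A29 were kept without each library. SLC35A3 was at 37.7, 31.5 and 36.0 CPM with DMSO, 55.7, 70.9 and 58.6 CPM with abemaciclib and 55.7, 54.1 and 41.8 CPM with fulvestrant, and at 48.0, 42.3 and 49.0 CPM with both. SLC4A7 and SLC29A2 were lost without 8 and 9 of the 12 libraries, at values down to -0.71 without abemaciclib replicate 3 and 0.61 without combination replicate 3, and SLC25A37 without 6, down to 0.92 without abemaciclib replicate 3. SLC4A7 was kept only without DMSO replicate 2, abemaciclib replicate 1 or 2 or fulvestrant replicate 3, SLC29A2 only without abemaciclib replicate 1, fulvestrant replicate 3 or combination replicate 2, and it was lost with no filter on low counts. The SLC25A37 call ended without DMSO replicate 2 or 3, abemaciclib replicate 3, fulvestrant replicate 1 or combination replicate 2 or 3. The sixth, SLC5A6 (0.69, adjusted p = 0.012), was lost without DMSO replicate 3 (0.63) or fulvestrant replicate 1 (0.56). The count of 6 became 2 without DMSO replicate 3 or fulvestrant replicate 1, 3 without abemaciclib replicate 3 or combination replicate 3 and 10 without fulvestrant replicate 3.

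Genes that work with these transporters or carry like substrates were counted from a list of 24. Of 23 tested, 5 rose and 3 fell with abemaciclib in MDA-MB-231 and 7 rose and 4 fell in MDA-MB-453, shares of 21.7% and 13.0% (all genes 16.9% and 16.9%) and of 30.4% and 17.4% (all genes 16.6% and 19.4%). TXNIP, an arrestin that draws glucose transporters from the membrane, rose by 1.80 and 1.37. SGK1, a kinase that regulates several transporters, fell in MDA-MB-231 (-1.07) and rose in MDA-MB-453 (2.48). In MDA-MB-453 its change was 1.85 in the combination against DMSO, with an interaction of the drugs of -1.31. BSG, the chaperone of monocarboxylate transporters, rose in MDA-MB-231 (0.64). The mitochondrial serine transporter SFXN1 fell by 0.55 and 0.81. Of the solute carriers with another family letter than A, 4 of 22 (18.2%) rose and none fell in MDA-MB-231, and 5 (29.4%) rose and 2 (11.8%) fell of 17 in MDA-MB-453.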

How the data were processed

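Bulk RNA of both lines was measured by 3′ RNA-seq. The deposited table holds raw read counts per gene symbol. The submitters' processing notes name STAR, featureCounts and the hg38 build, and the study's methods add adapter trimming by BBDuk. The strand setting is not given in the sources used here. Totals were 2873558 to 4158762 counts per library. Groups were taken from the sample titles. Counts were fitted per line (12 libraries) with edgeR 4.0.16 in R 4.3.3 (TMM, filterByExpr, quasi-likelihood F test, 2-sided), and the difference between lines on 24 libraries. Calls had a Benjamini-Hochberg adjusted p under 0.05 over all genes tested. DESeq2 1.42.0, size factors, no filter, a replicate block, no mitochondrial-genome genes, a 1.5-fold minimum, only the groups compared and each library left out were tried. Scripts were tested on simulated data. Gene positions came from GENCODE 44 on GRCh38, promoters from RefSeq. The members, classes and lists were chosen with earlier results of these data known. Genes named by a fixed rule were those with the largest change in each direction per class and line among called members at 10 CPM or more without overlap, the 5 largest differences or drug interactions, the members found in one line, and the pair of one family called in opposite directions. A few genes that meet this rule are not reported here.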

Additional observations from a re-analysis of the deposited data

Results flagged for a closer look

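The effect of abemaciclib differed between the lines, by the test of the difference itself over 24 libraries, for the 8 members below, picked by size. All values are log2 fold changes in MDA-MB-453 minus those in MDA-MB-231. The lines also differed in culture medium, which cannot be told apart from the line here. SLC25A16 had a difference of 1.66, at low levels in both lines, and was lost without 14 of the 24 libraries and without mitochondrial-genome genes. The zinc exporter SLC30A1 had a difference of 1.42, falling in MDA-MB-231 and rising in MDA-MB-453. SLC30A5, which loads zinc into the secretory pathway, had a difference of 1.38 and was called only in MDA-MB-231. The pyrimidine nucleotide carrier SLC25A33 had a difference of 1.35. SLC2A11, of the glucose transporter family, had a difference of -1.97. It averaged only 5.24 CPM in MDA-MB-231. Its exons overlap ENSG00000251357 on the same strand and ENSG00000272973 and ENSG00000279467 on the other. The vitamin C transporter SLC23A2 had a difference of -1.86, lost without DMSO replicate 2 (-1.65) or abemaciclib replicate 2 (-1.50) of MDA-MB-453. It averaged 4.48 CPM in MDA-MB-453. SLC1A4, a transporter of small neutral amino acids, had a difference of -1.63, lost without DMSO replicate 2 of MDA-MB-231 (-1.25). It averaged 3.18 CPM in MDA-MB-231, where its change in the combination against fulvestrant was 0.01. SLC12A9, of the cation-chloride cotransporter family, had a difference of -1.60.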

How the results depend on the processing

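The 39 genes named by the fixed rule, in 52 comparisons, were recomputed under the alternatives, and none of these values reversed direction. Of them, 958 kept their direction and side of the threshold and 134 kept the direction but lost the call. With a minimum change of 1.5-fold, the members called for abemaciclib against DMSO, the combination against DMSO and the combination against fulvestrant fell to 9, 10 and 12 in MDA-MB-231 and 9, 12 and 12 in MDA-MB-453, those for the difference between the lines to 10, and those for the combination against abemaciclib and the interaction in MDA-MB-453 to 0, the test there asking for a larger change. Without a filter on low counts 1 member was called for the combination against abemaciclib in MDA-MB-231 and 1 for fulvestrant in MDA-MB-453, and DESeq2 called 1 and 2. Leaving out single libraries gave, for abemaciclib against DMSO, 31 to 38 and 42 to 53 members in the lines, for the combination against DMSO 36 to 45 and 47 to 58, for the combination against fulvestrant 39 to 49 and 46 to 62, and for the difference 28 to 36. It gave 0 to 1 for fulvestrant, 0 to 1 for the combination against abemaciclib and 0 to 2 for the interaction in MDA-MB-231, with 2 without fulvestrant replicate 1, and 0 to 10, 0 to 6 and 2 to 10 in MDA-MB-453. The cause was not tested.

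With a replicate block, 37, 43 and 47 members were called in MDA-MB-231 and 51, 55 and 59 in MDA-MB-453 for these 3 main comparisons, 2 for the combination against abemaciclib and 6 for the interaction in MDA-MB-453, and 33 for the difference. Fulvestrant in both lines, and the combination against abemaciclib and the interaction in MDA-MB-231, had 0 with the block. Libraries of one number deviated together with a correlation of -0.17 to 0.054, and 1 of 12 and 5 of 12 libraries were closest to their own number, so they share only a number. At these depths members near the threshold of 10 CPM rest on few counts per library.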
